A study of Mus musculus with 12 samples.

Results

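Pre-CD4 progenitors are bone marrow cells that carry CD11c and are labelled as precursors of the CD4 branch of classical dendritic cells (DCs), and they are described here, family by family, against the common DC progenitors (CDPs). The comparison used 5 of the 12 arrays of the series, the 2 titled Pre-CD4 and the 3 titled CDP, and all 22184 genes with a probe set listed for that gene alone. Gene families were read through 47 lists that together name 1230 genes, of which 1151 were measured.

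The study profiled DC progenitors and DCs of Zbtb46GFP/+ mice on the C57Bl/6 strain at steady state, on Affymetrix arrays after whole-transcriptome amplification. Every group carried the GFP reporter at 1 Zbtb46 allele, so no group had both alleles intact. CDPs were lineage-negative marrow cells with intermediate CD117 (Kit) that carried CD135 (Flt3) and CD115 (Csf1r) and lacked both CD11c (Itgax) and MHC II. Pre-CD4 cells were lineage-negative marrow cells with low CD117 that carried CD135, CD115 and CD11c and lacked MHC II. Values are also given for 2 arrays of pre-CD8 progenitors (lineage-negative marrow cells with CD135, intermediate CD117, CD11c and intermediate MHC II, without Siglec H) and for 2 arrays of CD172a DCs (sorted for CD11c, MHC II and CD172a, with spleen as the other tissue the labels name). Sorts drew on 8 to 10 littermates and gave a purity above 95%. The labels give neither the age of the mice nor the origin of each array within a group, so p-values here reflect array-to-array spread alone, which may be technical.

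CDPs give rise to classical DCs and plasmacytoid DCs (pDCs). They still hold transcripts of stem cells and of the granulocyte and monocyte lineages, which share their origin. On the way to a DC, cells exchange the growth programme of a progenitor for receptors that sense, bind and adhere, and later for antigen presentation and costimulation.

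The deposited values are log2 expression values, so a difference of 1 is a 2-fold change, and each ± below is the standard error of a difference fitted by limma. The 5 arrays had mean values of 5.28 to 5.32, with correlations over probe sets of 0.970 to 0.987 among CDP arrays, 0.971 between the pre-CD4 arrays and 0.948 to 0.968 between the groups. At an adjusted p under 0.05, 514 genes were higher in pre-CD4 cells (2.32% of the genes tested) and 494 were lower (2.23%), and the median difference over all genes was 0.02. Together these are 4.54% of all genes. The arrays of the 2 groups did not overlap in 8103 genes (36.5% of those tested). Of the called genes 0 overlapped, so a lack of overlap adds nothing to a call. Of the 1151 family genes measured, 116 were higher and 105 were lower, larger shares than over all genes. The lists were chosen with earlier results of these data known. The share of any 1 list is thus to be read beside these counts too. In 656 of the 1008 called genes (65.1%), pre-CD4 array 2 lay further from the CDP mean than array 1. The number of called family genes was 221 with all arrays, 97 when pre-CD4 array 2 was left out and 136 when array 1 was, and lay between 150 and 172 with a CDP array left out.

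**Figure D1:**
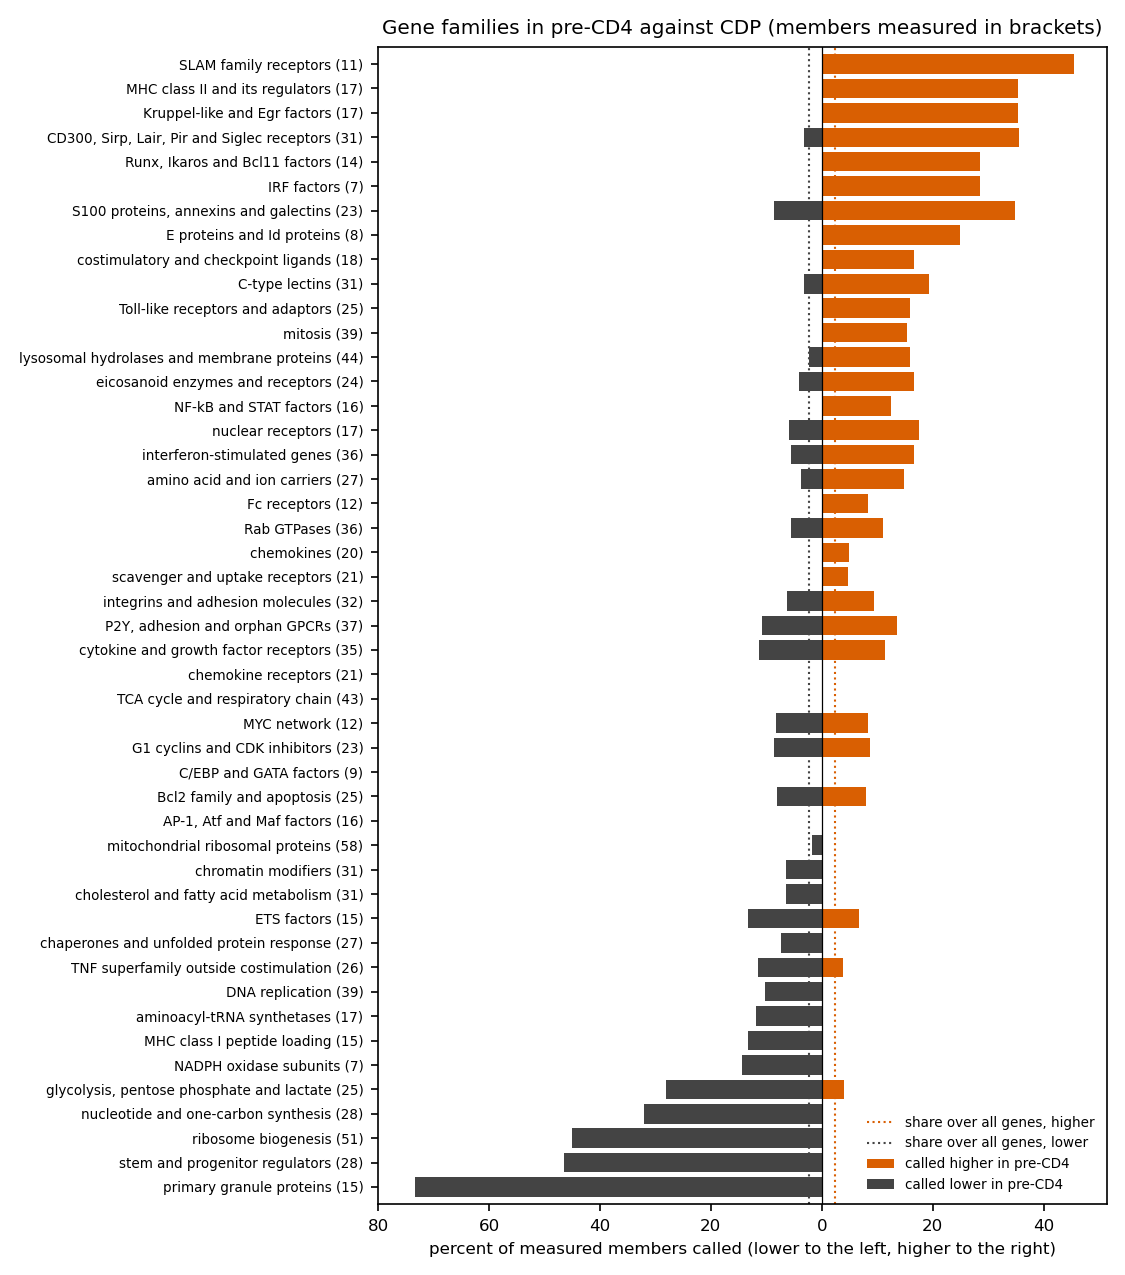
Percent of the measured members of each of the 47 family lists called higher (orange, to the right) or lower (dark, to the left) in pre-CD4 cells, with the shares over all genes (2.32% and 2.23%) as dotted lines. Granule proteins (73.3% lower), stem cell regulators (46.4% lower) and ribosome biogenesis (45.1% lower) stand at the bottom, and SLAM receptors (45.5% higher) at the top. Of all 1151 family genes measured, 116 were called higher and 105 lower.

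The sort genes gave a check of the labels. Itgax read 6.17, 5.84 and 6.19 in CDP arrays and 9.54 and 9.67 in pre-CD4 arrays, a rise of 3.54 ± 0.28, and Kit fell from 8.51, 8.15 and 8.04 to 6.11 and 5.80. Flt3 (difference 0.03 ± 0.23) and Csf1r (-0.34 ± 0.26), which both gates require, did not pass the test. H2-Ab1 was higher although both gates exclude MHC II protein, at 8.17 and 10.20 in the pre-CD4 arrays against 6.42 to 6.70 in CDP. Siglech, which the pre-CD4 gate does not use, rose by 2.12 ± 0.32.

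Markers of other marrow cells were read in the same arrays. Of 18 pDC markers 9 rose and 1 fell, with a mean level of 6.44 to 6.76 over CDP arrays and 7.41 to 7.65 over pre-CD4 arrays. Those that rose include Spib, Siglech, Cd300c, Tcf4 and Irf7, which also stand in the families below. Their part in those results was not tested. Monocyte markers had a mean level of 6.91 to 7.24 in CDP and 7.25 to 7.33 in pre-CD4 arrays, with 1 of 17 higher and 1 lower. Neutrophil markers differed more between arrays of 1 group than between groups: their mean level was 5.47, 6.92 and 6.82 in the CDP arrays and 5.52 and 6.16 in the pre-CD4 arrays, and Ngp, a neutrophil granule gene, read 5.10, 8.77 and 8.11 in CDP and 5.36 and 7.39 in pre-CD4. Of 12 B cell, 17 T and NK cell and 12 basophil, mast cell and eosinophil markers, limma called 0; at an unadjusted p under 0.05 these lists had 1, 1 and 2 members. Of 10 erythroid and megakaryocyte markers 1 was lower (10%, against 2.23% of all genes).

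Primary granule proteins were the family with the largest share of falling members. The list joins enzymes that myeloid progenitors pack into their first granules with other genes of these cells, among them Rab44, Ms4a3 and Hp. Of 15 genes 11 fell, with a median difference of -1.87. Prtn3, encoding proteinase 3, read 9.75, 9.57 and 9.74 in CDP arrays and 6.65 and 5.21 in pre-CD4 arrays, a difference of -3.76 ± 0.32 (adjusted p 3.21e-05). Rab44, a large Rab GTPase of granules, read 9.90, 9.85 and 9.80 against 6.56 and 5.74, a difference of -3.70 ± 0.31. The arrays of the groups did not overlap for either gene, as for every called gene, and pre-CD4 array 2 was the lower of its pair in both. Ms4a3, a membrane protein of granulocyte-monocyte progenitors, fell by 2.91 ± 0.37. Hp, encoding haptoglobin, fell by 2.63 ± 0.43. Lyz2, encoding lysozyme of monocytes and macrophages, went the other way without passing the test (0.64 ± 0.31). Neutrophil markers, given above, had a mean level of 5.47 in CDP array 1, where Prtn3 read 9.75. The part of neutrophils in the granule result was not tested. In 6 of the 11 genes the call held with any 1 of the 5 arrays left out. The call of Hp was lost without pre-CD4 array 1 (adjusted p 0.0546) and that of Elane, neutrophil elastase, without pre-CD4 array 2 (0.0559). In bulk RNA, fewer cells of a type and less RNA per cell cannot be told apart.

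The granule genes Ctsg, Mpo, Elane and Prtn3 fell furthest of their list, and the 250 bases before each start site hold the letters GAGGAAG, the core of many sites bound by the myeloid factor PU.1. They are shown because these genes moved together. The sequences are from RefSeq on GRCm38.p6, 5′ to 3′ along the gene, with that core in capitals; they cover Ctsg at chr14:56102575-56102824 (minus strand), Mpo at chr11:87793534-87793783, Elane at chr10:79886062-79886311 and Prtn3 at chr10:79879417-79879666 (plus strand for all but Ctsg).
Ctsg: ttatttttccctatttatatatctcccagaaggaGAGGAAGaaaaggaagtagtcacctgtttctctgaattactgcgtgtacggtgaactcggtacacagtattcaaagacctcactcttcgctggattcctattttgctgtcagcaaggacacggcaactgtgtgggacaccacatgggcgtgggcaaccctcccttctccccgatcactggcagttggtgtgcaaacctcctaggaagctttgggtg
Mpo: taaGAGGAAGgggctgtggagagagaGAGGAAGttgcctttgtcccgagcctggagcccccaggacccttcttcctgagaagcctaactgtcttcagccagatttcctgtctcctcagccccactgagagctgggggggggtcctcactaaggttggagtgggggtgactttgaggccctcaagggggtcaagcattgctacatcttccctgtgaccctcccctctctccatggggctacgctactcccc
Elane: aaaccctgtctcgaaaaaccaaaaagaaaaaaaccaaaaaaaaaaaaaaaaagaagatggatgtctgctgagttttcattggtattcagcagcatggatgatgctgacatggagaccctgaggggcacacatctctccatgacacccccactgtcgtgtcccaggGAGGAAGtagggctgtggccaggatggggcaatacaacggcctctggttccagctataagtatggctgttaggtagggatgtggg
Prtn3: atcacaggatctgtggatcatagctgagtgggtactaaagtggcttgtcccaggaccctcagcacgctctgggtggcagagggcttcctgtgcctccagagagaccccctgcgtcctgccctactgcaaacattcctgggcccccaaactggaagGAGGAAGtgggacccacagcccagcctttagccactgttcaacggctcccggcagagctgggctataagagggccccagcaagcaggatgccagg
Searched on both strands, the core was present in the windows of 5 of 11 granule genes with an entry (45.5%) and in 10.2% of the 16994 windows of all genes tested. Its first base lay 216 bases before the start of Ctsg, 247 and 224 bases before that of Mpo, 85 before Elane and 95 before Prtn3, each time on the strand of the gene. The windows of the CD300, Sirp and Siglec family, most of whose called members rose, held it in 11 of 24 cases (45.8%), and those of all genes called higher and lower held it in 15.5% and 15.1%. A match is a run of letters, and binding was not measured.

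Regulators and surface proteins of stem and progenitor cells fell next. Of 28 listed genes 13 fell and all 28 had a negative difference, with a median of -1.01. Cd34, the sialomucin that marks early progenitors, read 10.40, 10.16 and 10.26 in CDP arrays and 7.19 and 6.11 in pre-CD4 arrays (-3.63 ± 0.31, adjusted p 3.21e-05). Erg, an ETS factor of stem cells and endothelium, read 8.44, 8.11 and 7.78 against 5.26 and 4.25 (-3.35 ± 0.32). Both genes were lower in each pre-CD4 array than in each CDP array, as were all genes called lower. The adhesion G protein-coupled receptors Adgrl4 (-3.51 ± 0.34) and Adgrg3 (-2.80 ± 0.33) fell with them. Myb, a factor of progenitor growth, fell by 1.66 ± 0.23 from a narrow range of 10.45 to 10.51 in CDP, to 8.94 and 8.69. The call of Sox4, a factor of early progenitors (-1.87 ± 0.44, adjusted p 0.0283), was lost without any of the 3 CDP arrays (0.0537 to 0.109) and without pre-CD4 array 2 (0.320). Of the 9 C/EBP and GATA factors, which direct the granulocyte and other myeloid branches, limma called 0, with 1 at an unadjusted p under 0.05. Cebpa read 7.22, 7.05 and 6.93 in CDP and 7.26 and 7.14 in pre-CD4 arrays, so its ranges overlapped. Its link to the granule genes was not tested.

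**Figure D2:**
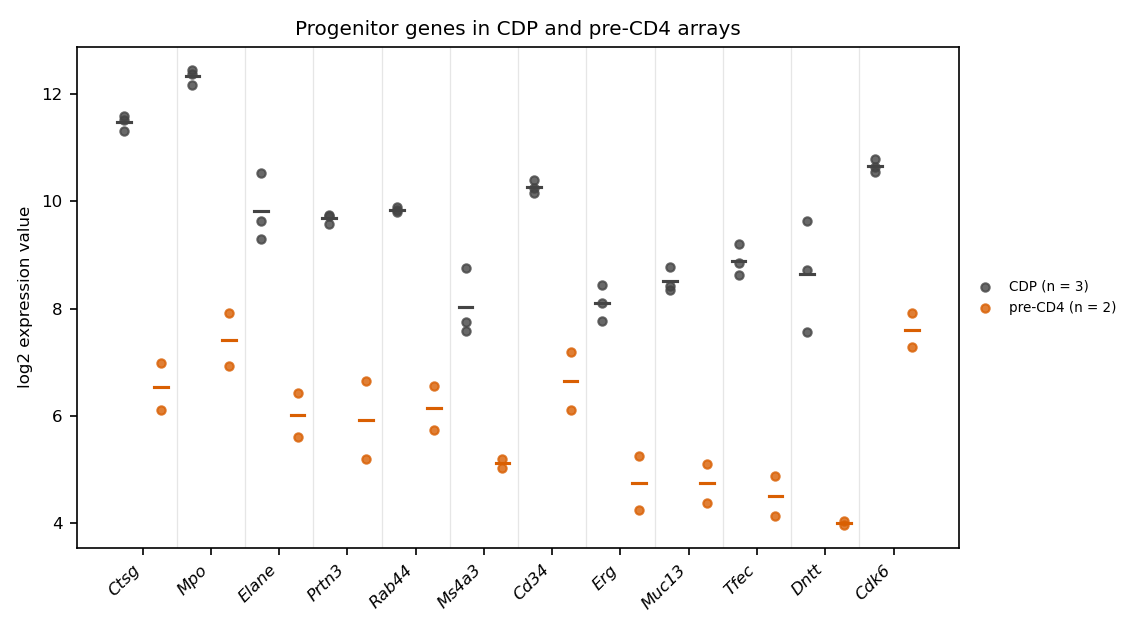
Log2 values of 12 genes of progenitor cells in each CDP array (dark, n = 3) and pre-CD4 array (orange, n = 2), with a bar at each group mean. All genes shown were called lower, and in every such gene the pre-CD4 arrays lie below all CDP arrays. The differences of means run from -2.91 for Ms4a3 to -4.92 for Ctsg.

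Among the 40 largest falls, Cd81, Cd69 and Il12a stand in no list. Cd81, a tetraspanin, read 8.80, 8.60 and 8.48 in CDP and 5.45 and 5.21 in pre-CD4 arrays, and stood at 8.68 and 9.30 in CD172a DCs. Cd69, which holds cells in tissue by removing a sphingosine phosphate receptor, behaved likewise, at 9.19, 8.72 and 8.57, then 6.60 and 5.53, and 7.97 and 9.24 in CD172a DCs. Both were thus low in pre-CD4 cells and high on either side, and both differences between CD172a DCs and pre-CD4 cells passed the test (3.67 ± 0.37 and 2.54 ± 0.42). Il12a, the p35 chain of interleukin 12, fell by 2.77 ± 0.36 and did not differ between pre-CD4 cells and CD172a DCs beyond the test (-1.02 ± 0.40). In all, 3 of the 40 largest falls differed between pre-CD4 and pre-CD8 cells, against 14 of the 40 largest rises, where 0.703% of all genes did. The same pre-CD4 arrays chose these genes and enter this contrast. The counts are thus a description and cannot be weighed against the share over all genes.

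Growth genes fell as a broad, shallow layer. Ribosome biogenesis, the making of ribosomal RNA and its assembly in the nucleolus, had 23 of 51 genes lower and 50 of 51 with a negative difference, at a median of -0.80. Utp4, part of the machinery that processes the small subunit, read 8.33, 7.95 and 8.27 in CDP arrays and 6.33 and 5.80 in pre-CD4 arrays (-2.12 ± 0.27, adjusted p 0.000526). Gnl3, nucleostemin, read 9.96, 9.82 and 9.86 against 8.18 and 8.26 (-1.66 ± 0.22). Neither gene overlapped between groups, nor did any other called gene. Heatr1, needed for transcription of ribosomal RNA, fell by 1.37 ± 0.19. Polr1a, the largest subunit of RNA polymerase I, fell by 1.39 ± 0.24. With any 1 of the 5 arrays left out, 6 of the 23 calls held, and Polr1a was among those lost, without pre-CD4 array 2 (adjusted p 0.0827).

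Nucleotide and one-carbon synthesis had 9 of 28 genes lower and a median of -0.87. Shmt2, the mitochondrial enzyme that feeds one-carbon units from serine, read 9.34, 9.35 and 9.24 in CDP arrays and 7.51 and 7.14 in pre-CD4 arrays (-1.98 ± 0.29, adjusted p 0.00152), and its cytosolic partner Shmt1 fell by 1.75 ± 0.26. Ppat, the first committed step of purine synthesis, fell by 1.63 ± 0.24, and Cad, which starts pyrimidine synthesis, by 1.36 ± 0.20. Purine, pyrimidine and folate enzymes thus all had members among the genes that fell. The mitochondrial chaperones Hspd1 (-1.40 ± 0.19) and Hspa9 (-1.38 ± 0.17) were the 2 of 27 chaperone genes that fell. Mitochondrial ribosomal proteins had 53 of 58 negative differences and a median of -0.43, with 1 call. Their mean level was 7.70, 7.21 and 7.42 in CDP arrays and 7.23 and 6.84 in pre-CD4 arrays, so the groups overlapped. Genes of a list come from the same arrays, so their signs are not independent. The TCA cycle and respiratory chain had 41 of 43 negative differences and a median of -0.31, and limma called 0 of them, with 9 lower at an unadjusted p under 0.05.

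In the MYC network, Myc, which drives growth genes, read 9.58, 9.02 and 9.06 in CDP arrays and 7.83 and 8.05 in pre-CD4 arrays (-1.28 ± 0.28, adjusted p 0.0187). Mxd3, a member of the MYC-opposing Mxd group, rose by 1.24 ± 0.25. Either call was lost when a pre-CD4 array was left out: the adjusted p of Myc was 0.167 without array 1 and 0.101 without array 2, and that of Mxd3 was 0.149 and 0.0519. The call of Myc was also lost without CDP array 1 (0.0769). The other 10 members did not pass the test. The E-box CACGTG, the element that MYC binds, was present in the windows of 4 of 44 ribosome biogenesis genes (9.09%) and 4 of 27 nucleotide synthesis genes (14.8%), against 6.87% of all windows. Over all genes called lower the share was 8.66%, and over those called higher it was 6.55%. The list shares rest on 4 genes each, and MYC binding was not measured.

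The miRNA genes of the Mir17 cluster, a known target of MYC, were looked at for this reason after their values were seen. The mature miRNAs whose genes had a probe set are given from RefSeq with the seed, bases 2 to 8, in capitals, because miR-17 and miR-20a share it and differ outside it.
miR-17-5p: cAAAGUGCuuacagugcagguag
miR-20a-5p: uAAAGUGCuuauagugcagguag
miR-18a-5p: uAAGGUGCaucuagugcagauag
miR-19a-3p: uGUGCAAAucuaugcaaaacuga
Mir20a read 6.47, 6.48 and 6.51 in CDP arrays and 5.02 and 5.35 in pre-CD4 arrays (-1.30 ± 0.22, adjusted p 0.00422), and its call was lost without pre-CD4 array 1 (0.0702). Mir17 (-0.40), Mir18 (-0.49) and Mir19a (-0.90) did not pass the test. Of 483 miRNA genes measured, Mir20a and Mir3109 (1.75 ± 0.34) were the 2 called, and the call of Mir3109 was lost without either pre-CD4 array (0.0775 and 0.0847). Whether a probe set of a miRNA gene reads the mature form or its longer precursors was not tested.

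Cell-cycle genes split by phase. DNA replication had 34 of 39 negative differences and a median of -0.50, with 4 calls, Mcm3 (-1.10 ± 0.25), Cdt1 (-0.98 ± 0.25), Orc1 (-0.96 ± 0.22) and Chaf1b (-0.92 ± 0.21), which license origins or place histones on new DNA. Mitosis had 39 of 39 positive differences and a median of 0.65, with 6 calls, among them Cdc25b, the phosphatase that admits cells to mitosis (1.28 ± 0.23), and Racgap1, of the cleavage furrow (1.15 ± 0.19). These calls were thin: of the 4 and the 6, 0 held with any 1 array left out, while at an unadjusted p under 0.05 limma had 13 replication genes lower and 23 mitosis genes higher. On leaving out pre-CD4 array 2, the adjusted p became 0.205 for Mcm3, 0.307 for Cdt1, 0.128 for Orc1, 0.235 for Chaf1b, 0.126 for Cdc25b and 0.0717 for Racgap1. The 4 replication calls were also lost without pre-CD4 array 1 (0.0901 to 0.167) and without CDP array 3 (0.0622 to 0.129). Without CDP array 1 the adjusted p was 0.152 for Cdt1, 0.0584 for Orc1 and 0.0957 for Chaf1b, and without CDP array 2 it was 0.0747 for Mcm3 and 0.0785 for Orc1. All 39 mitosis genes were lower in CD172a DCs than in pre-CD4 cells at the test's threshold, against 8.02% of all genes.

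Of 23 G1 cyclins and CDK inhibitors 2 rose and 2 fell, with a median of 0.13. Cdk6, the kinase that drives progenitors through G1, read 10.55, 10.79 and 10.64 in CDP arrays and 7.92 and 7.29 in pre-CD4 arrays (-3.06 ± 0.35, adjusted p 0.000266). Ccnd2, its cyclin D partner, fell by 1.88 ± 0.37, and 2 inhibitors of the same kinase, Cdkn2c (1.33 ± 0.20) and Cdkn2d (1.32 ± 0.25), rose. The arrays of the groups did not overlap in these 4 genes, as in every called gene. The calls other than that of Cdk6 were each lost when 1 of the 2 pre-CD4 arrays was left out. Without array 2 the difference was -1.40 for Ccnd2 and 1.15 for Cdkn2c, and without array 1 it was 1.12 for Cdkn2d. A fit with 1 array in a group has less power, so a lost call does not show dependence on the array left out.

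In glycolysis and the pentose phosphate path 7 of 25 genes fell. Hk3, the hexokinase of myeloid cells, read 7.45, 7.10 and 7.32 in CDP and 4.73 and 5.20 in pre-CD4 arrays (-2.33 ± 0.29, adjusted p 0.000443). Tpi1 (-2.10 ± 0.34) and Pgd, of the pentose path (-1.49 ± 0.25), fell as well, and Pfkp, the platelet form of phosphofructokinase, rose by 1.39 ± 0.24. On leaving out pre-CD4 array 2, the adjusted p became 0.0701 for Tpi1, 0.0793 for Pgd and 0.0630 for Pfkp. Bcl2, which guards against apoptosis, fell by 1.59 ± 0.34, and its adjusted p was 0.0176 with all arrays, 0.235 without pre-CD4 array 2, 0.0625 without CDP array 2 and 0.0544 without CDP array 3.

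**Figure D3:**
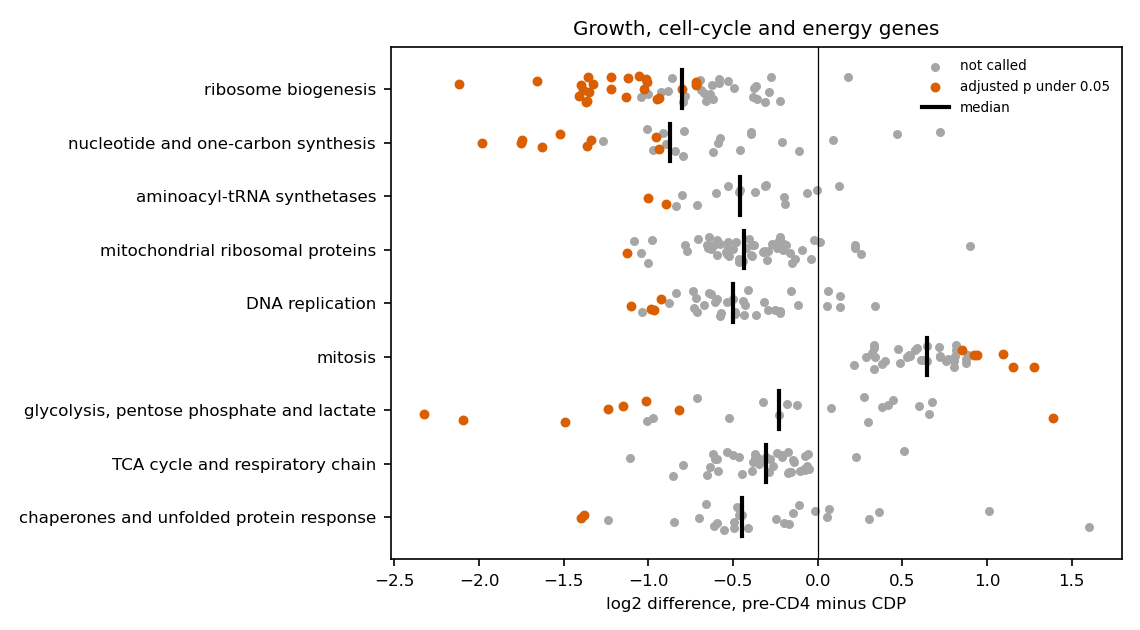
Log2 difference between pre-CD4 and CDP cells for every measured gene of 9 growth, cell-cycle and energy lists, with called genes in orange and the list median as a black bar. The medians of ribosome biogenesis (-0.80) and nucleotide synthesis (-0.87) lie furthest to the left, and mitosis (0.65) is the 1 list with its median to the right of 0.

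Of the Kruppel-like and Egr factors 6 of 17 rose, of which 1 call held without pre-CD4 array 2 and with any 1 array left out. Of 16 NF-kB and STAT factors 2 rose, with a median of 0.59 and 8 higher at an unadjusted p under 0.05, and 0 of the 2 calls held with any 1 array left out. Klf3, a repressor, read 6.01, 5.92 and 5.87 in CDP and 7.78 and 8.42 in pre-CD4 arrays (2.16 ± 0.29, adjusted p 0.000745). Klf6, a broadly used activator, rose by 1.18 ± 0.20, with an adjusted p of 0.0686 without pre-CD4 array 2. Of the 14 Runx, Ikaros, Bcl and Bach factors 4 rose, of which 1 held with any 1 array left out; 2 held without CDP array 1 or 3 and 1 without pre-CD4 array 2. Bcl6, a repressor that classical DCs use, read 6.36, 6.34 and 6.32 in CDP and 8.25 and 8.29 in pre-CD4 arrays (1.93 ± 0.20, adjusted p 0.000105). Bcl11a, which B cells and pDCs require, rose by 1.36 ± 0.21, with an adjusted p of 0.0505 without pre-CD4 array 2.

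Among E proteins, Tcf4, the E protein of pDCs, read 8.54, 8.38 and 8.38 in CDP and 9.58 and 9.49 in pre-CD4 arrays (1.10 ± 0.19, adjusted p 0.00468). Its call was lost on leaving out pre-CD4 array 1 (0.0606) or array 2 (0.0524). Id2, the inhibitor of E proteins that classical DCs carry, read 5.32, 4.95 and 5.15 in CDP and 5.40 and 5.46 in pre-CD4 arrays, a difference that did not pass the test (0.29 ± 0.20). Of 7 interferon regulatory factors, Irf7, of the type I interferon response, rose by 1.86 ± 0.30 beside Irf4, while Irf8, which CDPs need, read 11.44 to 11.53 in CDP and 12.05 and 11.92 in pre-CD4 arrays without passing the test (0.49 ± 0.24). Limma called 0 of the 16 AP-1, Atf and Maf factors, with 5 higher at an unadjusted p under 0.05.

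Ligand-sensing factors moved in both directions. Rara, the receptor of retinoic acid, read 5.92, 6.08 and 6.33 in CDP and 7.31 and 7.27 in pre-CD4 arrays (1.18 ± 0.20, adjusted p 0.00334). Its partner Rxra rose by 0.95 ± 0.18, Ahr, the aryl hydrocarbon receptor, by 1.53 ± 0.34, and Vdr, the vitamin D receptor, fell by 1.21 ± 0.21. Only the call of Rara, of these 4, held with any 1 of the 5 arrays left out: on leaving out pre-CD4 array 2 the adjusted p became 0.0872 for Rxra and 0.155 for Ahr, and without array 1 it was 0.0825, 0.113 and, for Vdr, 0.0768. The call of Ahr was also lost without CDP array 1 (0.0625) or 3 (0.0624).

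Paired inhibitory and activating receptors were the surface family with the most rising members. Of 31 CD300, Sirp, Lair, Pir and Siglec receptors 11 rose and 1 fell, with a median of 0.48, and 7 of the 12 calls held with any 1 array left out. Cd200r1, the inhibitory receptor of CD200, read 4.97, 4.46 and 4.71 in CDP arrays and 7.78 and 8.47 in pre-CD4 arrays (3.41 ± 0.32, adjusted p 6.38e-05). Pirb, an inhibitory receptor of MHC class I, read 5.71, 6.31 and 6.45 against 9.49 and 9.31 (3.25 ± 0.32). Both were higher in each pre-CD4 array than in each CDP array, as were all genes called higher. Cd300lg (2.83 ± 0.28), Cd300c (2.38 ± 0.27) and Cd300a (1.56 ± 0.26), of the CD300 lipid receptors, rose, and Cd300lb, an activating member, fell by 1.11 ± 0.24, with an adjusted p of 0.0161 that was 0.229 without pre-CD4 array 2, 0.0548 without CDP array 2 and 0.0713 without CDP array 3. Cd22 (1.72 ± 0.24) and Cd33 (2.42 ± 0.39), both Siglecs that bind sialic acid, rose; the adjusted p of Cd33 was 0.0587 without pre-CD4 array 2. CD300 and Pir genes have close copies that short probes may not separate.

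Of 11 SLAM genes, which bind one another between blood cells, 5 rose, with a median of 0.80; 3 of the calls held without CDP array 1 or 3 or pre-CD4 array 1, and 2 when pre-CD4 array 2 was left out. Besides Slamf7, Cd48, the partner of the receptor encoded by Cd244a, read 9.73, 9.55 and 9.72 in CDP and 10.93 and 10.96 in pre-CD4 arrays (1.28 ± 0.21, adjusted p 0.00296), and Cd244a itself rose by 1.55 ± 0.25, with an adjusted p of 0.0588 without pre-CD4 array 2. Of 31 C-type lectins 6 rose and 1 fell; of the 7 calls, 3 held without pre-CD4 array 1, 4 without pre-CD4 array 2 or CDP array 2, and 2 with any 1 array left out. Clec4g, a lectin of sinusoidal endothelium, rose by 2.13 ± 0.34 beside Cd209d. Of 12 Fc receptor genes 1 rose (8.33%, against 2.32% of all genes). This was Fcgrt, the neonatal Fc receptor that recycles IgG and albumin, from 6.59, 6.70 and 6.37 to 9.18 and 9.16 (2.62 ± 0.22, adjusted p 3.21e-05).

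Of 35 cytokine and growth factor receptors 4 rose and 4 fell (11.4% each, against 2.32% and 2.23% of all genes). The other 27 did not pass the test, and the median was -0.02. Il13ra1, the receptor chain of interleukins 13 and 4, read 4.64, 4.46 and 4.72 in CDP and 7.40 and 8.28 in pre-CD4 arrays (3.23 ± 0.25, adjusted p 2.07e-05). Lifr, the receptor of leukaemia inhibitory factor, read 6.01, 5.82 and 6.02 against 8.41 and 8.93 (2.72 ± 0.29). Il12rb2 (1.62 ± 0.25), of the interleukin 12 receptor, and Il10ra (1.60 ± 0.26), of the interleukin 10 receptor, rose as well. Among the receptors that fell, Il1r1, for interleukin 1, read 6.87, 6.56 and 6.58 against 4.72 and 4.07 (-2.28 ± 0.33). Csf3r, for granulocyte colony-stimulating factor, fell by 1.81 ± 0.35. The call of Csf3r was lost without pre-CD4 array 1 (adjusted p 0.123).

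Of 37 P2Y, adhesion and orphan G protein-coupled receptors 5 rose and 4 fell, Adgrl4 and Adgrg3 among those that fell. P2ry10, which binds lysophosphatidylserine, read 3.33, 2.80 and 2.36 in CDP and 5.45 and 6.41 in pre-CD4 arrays (3.10 ± 0.32, adjusted p 0.000131). P2ry6, the receptor of UDP, rose by 2.46 ± 0.32 and P2ry12, the receptor of ADP, by 2.20 ± 0.27. Gpr183, which leads cells along oxysterols, read 7.98, 7.82 and 8.03 against 9.37 and 9.47 (1.48 ± 0.21). Of 21 chemokine receptors limma called 0, with 4 higher at an unadjusted p under 0.05; Ccr2 read 9.45, 9.73 and 9.65 in CDP and 10.32 and 10.75 in pre-CD4 arrays (0.92 ± 0.36). Of 20 chemokines Ccl6 was the 1 called, higher by 2.36 ± 0.35. That is 5% of the list, near the 4.54% of all genes called in either direction.

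**Figure D4:**
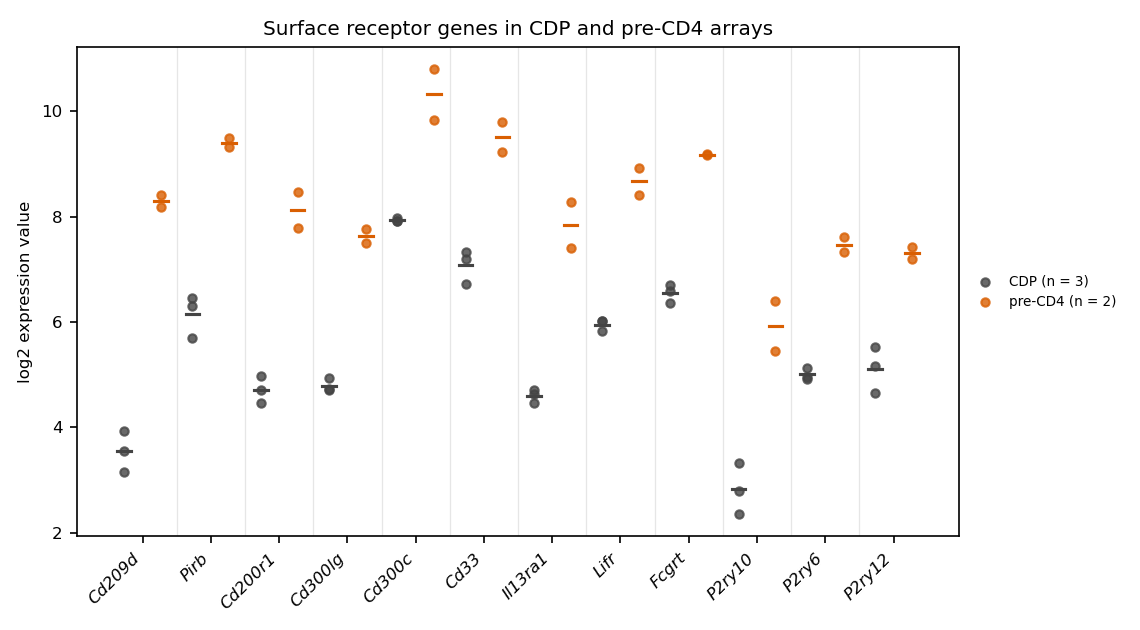
Log2 values of 12 surface receptor genes in each CDP array (dark, n = 3) and pre-CD4 array (orange, n = 2), with a bar at each group mean. All genes shown were called higher, and in every such gene both pre-CD4 arrays lie above all CDP arrays. The differences of means run from 2.20 for P2ry12 to 4.75 for Cd209d.

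Of 32 integrins and adhesion molecules 3 rose and 2 fell. Itgb2, the shared chain of the leukocyte integrins and so the partner of Itgax, read 6.77, 6.89 and 7.0 in CDP and 9.22 and 9.35 in pre-CD4 arrays (2.40 ± 0.23, adjusted p 6.57e-05), and Itgb7, the chain for gut homing, rose by 2.01 ± 0.27. Of 18 costimulatory and checkpoint genes 3 rose, among them Btla (2.05 ± 0.30), an inhibitory receptor of DCs, and Tnfsf9 (1.98 ± 0.30), the 4-1BB ligand, while Cd86 read 4.91, 5.75 and 4.83 in CDP and 6.57 and 5.84 in pre-CD4 arrays without passing the test (1.04 ± 0.31). Of the other 26 TNF superfamily genes 1 was higher (3.85%) and 3 were lower (11.5%), against 2.32% and 2.23% of all genes. Cd27, a receptor of progenitors and lymphocytes, fell by 1.90 ± 0.35. Its call was lost without pre-CD4 array 2, where the difference was -1.42.

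Innate sensing genes rose in part. Of 25 Toll-like receptors and adaptors 4 rose. Tlr12, a receptor of profilin, read 5.24, 6.08 and 5.81 in CDP and 7.74 and 7.36 in pre-CD4 arrays (1.84 ± 0.27, adjusted p 0.00138), and Cd180, a homologue of Tlr4, read 8.24, 8.26 and 8.46 against 9.73 and 9.98 (1.53 ± 0.20). Of 36 interferon-stimulated genes 6 rose and 2 fell: Mx1 (1.80 ± 0.27) and Mx2 (1.77 ± 0.26), antiviral GTPases, rose and the guanylate-binding proteins Gbp3 (-1.59 ± 0.30) and Gbp7 (-2.12 ± 0.41) fell. The calls of the 2 falls were each lost when 1 pre-CD4 array was left out. The difference was then -1.41 for Gbp3 without array 2 and -1.55 for Gbp7 without array 1. The interferon list had members called in both directions and a median of 0.34.

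Kynu and Kmo, consecutive enzymes of the kynurenine path, stood among the 40 largest rises and in no list. Kynu read 4.46, 4.11 and 4.03 in CDP and 6.84 and 7.20 in pre-CD4 arrays (2.82 ± 0.22, adjusted p 2.07e-05), and Kmo read 7.72, 8.12 and 8.14 against 10.36 and 10.55 (2.46 ± 0.27). In the eicosanoid list 4 of 24 genes rose and 1 fell. Alox5, the enzyme that starts leukotriene synthesis, rose by 2.00 ± 0.44 and the leukotriene receptor Cysltr1 by 1.82 ± 0.44, and 0 of the 5 calls held with any 1 array left out. Without pre-CD4 array 2 the adjusted p of Alox5 was 0.276 and that of Cysltr1 was 0.371. Both calls were also lost without CDP array 1 (0.0706 and 0.117) or 3 (0.0628 and 0.0700), and that of Cysltr1 without CDP array 2 (0.0705), with the replicate block (0.0554) and after quantile normalization (0.0604).

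Among proteins that bind calcium, membranes or the cytoskeleton, 8 of 23 S100 proteins, annexins and galectins rose and 2 fell, with a median of 0.77. Lsp1, an actin-binding protein of leukocytes, read 8.89, 8.96 and 8.89 in CDP and 10.85 and 11.03 in pre-CD4 arrays (2.03 ± 0.17, adjusted p 3.21e-05). S100a6 read 9.50, 9.55 and 9.69 against 11.81 and 11.75 (2.20 ± 0.35), and Ahnak, a giant scaffold that binds S100 proteins, rose by 1.92 ± 0.22. Anxa3, an annexin of granulocytes, fell by 2.75 ± 0.31. In no list but among the 40 largest rises, L1cam, an adhesion molecule of neurons, read 5.42, 6.14 and 5.91 in CDP and 9.29 and 9.94 in pre-CD4 arrays (3.79 ± 0.34). Srgap3, which acts on Rac, rose by 2.57 ± 0.29 and Plxdc2, a plexin domain protein, by 2.95 ± 0.27.

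Of 17 MHC class II genes and regulators 6 rose, with a median of 0.70, and 3 of the calls held with any 1 array left out. Ifi30 encodes the lysosomal thiol reductase that opens antigens for MHC class II. It read 7.65, 7.96 and 7.73 in CDP and 10.49 and 11.06 in pre-CD4 arrays (3.00 ± 0.38, adjusted p 0.000549). Both pre-CD4 arrays lay above all CDP arrays, as in every gene called higher. Of 44 lysosomal genes 7 rose and 1 fell, and Naaa, an amidase of fatty acid amides, rose by 1.97 ± 0.30. Of these 8 calls, 5 held without CDP array 1 or 2, 3 without CDP array 3 or pre-CD4 array 1, and 2 when pre-CD4 array 2 was left out. Of 27 amino acid and ion carriers 4 rose and 1 fell, with Slc15a3, a lysosomal carrier of peptides and histidine (2.06 ± 0.25), and Slc46a3 (2.10 ± 0.23) among those that rose. Of 7 NADPH oxidase genes Ncf4, the p40 subunit, fell by 1.76 ± 0.27, with an adjusted p of 0.0543 without pre-CD4 array 2. MHC class I loading had 2 of 15 genes lower.

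Which of these changes differed from those of the other progenitor was tested by the direct contrast of pre-CD4 with pre-CD8 cells, since both changes share the CDP arrays. Of all genes 156 differed (0.703%). The rises of Spib (3.60 ± 0.24 above pre-CD8), Atp1b1 (3.59 ± 0.26), Cd209d (3.55 ± 0.39), Lifr (3.12 ± 0.32), Cd200r1 (2.73 ± 0.36), Cd300c (2.37 ± 0.29) and Tcf4 (1.91 ± 0.21) were larger in pre-CD4 cells, with adjusted p-values from 8.45e-06 to 0.00199. Atp1b1, a sodium pump subunit and pDC marker, read 7.54, 7.48 and 7.15 in CDP, 9.10 and 9.07 in pre-CD4 and 5.43 and 5.56 in pre-CD8 arrays, so it moved in opposite directions. Spib, Cd300c and Tcf4 are pDC markers too. Pre-CD8 cells were sorted without Siglec H, which the pre-CD4 gate does not use. For these markers, gate and lineage cannot be told apart. Id2 stood below its pre-CD8 level (-4.67 ± 0.22), and so did Kit (-3.09 ± 0.23), which the gates fix, with CD117 low in pre-CD4 and intermediate in pre-CD8 cells. Ifi205 (-3.16 ± 0.28 against pre-CD8), Naaa (-2.40 ± 0.33) and Cd226 (-2.12 ± 0.30), an adhesion receptor, rose in both progenitors and stood lower in pre-CD4 cells. The calls of these genes held with any 1 array of the 4 populations left out, with adjusted p-values of at most 0.0439 by limma. Against CDP, the medians in pre-CD8 cells were -0.54 for ribosome biogenesis, -0.76 for nucleotide synthesis, 0.33 for mitosis and -0.80 for replication. They were -1.37 for granule proteins (6 lower) and -1.02 for stem and progenitor regulators (13 lower). SLAM receptors had 0.55 (5 higher), S100 proteins, annexins and galectins 0.93 (9 higher) and MHC class II 1.22 (10 higher). The CD300, Sirp, Lair, Pir and Siglec receptors had 0.09 (4 higher, 2 lower). These medians had the same sign in both progenitors.

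The labels name spleen cells as the other source beside marrow and give no marrow gate for CD172a DCs, so in this contrast tissue and stage cannot be told apart. Against pre-CD4 cells 1042 genes were higher (4.7%) and 1779 lower (8.02%). Of the 40 largest rises from CDP to pre-CD4, 20 were lower in CD172a DCs and 8 were higher, and of the 40 largest falls 4 were higher and 4 lower. Both contrasts use the same pre-CD4 arrays, which chose these genes, so the counts are a description. Cd209d (-3.80 ± 0.39), Cd300c (-3.89 ± 0.29), Cd300lg (-2.86 ± 0.30), L1cam (-2.88 ± 0.37), Fn1, encoding fibronectin (-5.02 ± 0.43), and Lifr (-1.86 ± 0.32) were higher in pre-CD4 cells than in either neighbour. Bcl6 was higher again in CD172a DCs, by 1.18 ± 0.21. Kit went the other way, at 9.59 and 9.80 in CD172a DCs against 6.11 and 5.80 in pre-CD4 arrays, and Id2 read 8.34 and 8.74 against 5.40 and 5.46. Cd86 read 10.89 and 11.03 in CD172a DCs, a difference of 4.76 ± 0.35 from pre-CD4 cells.

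**Figure D5:**
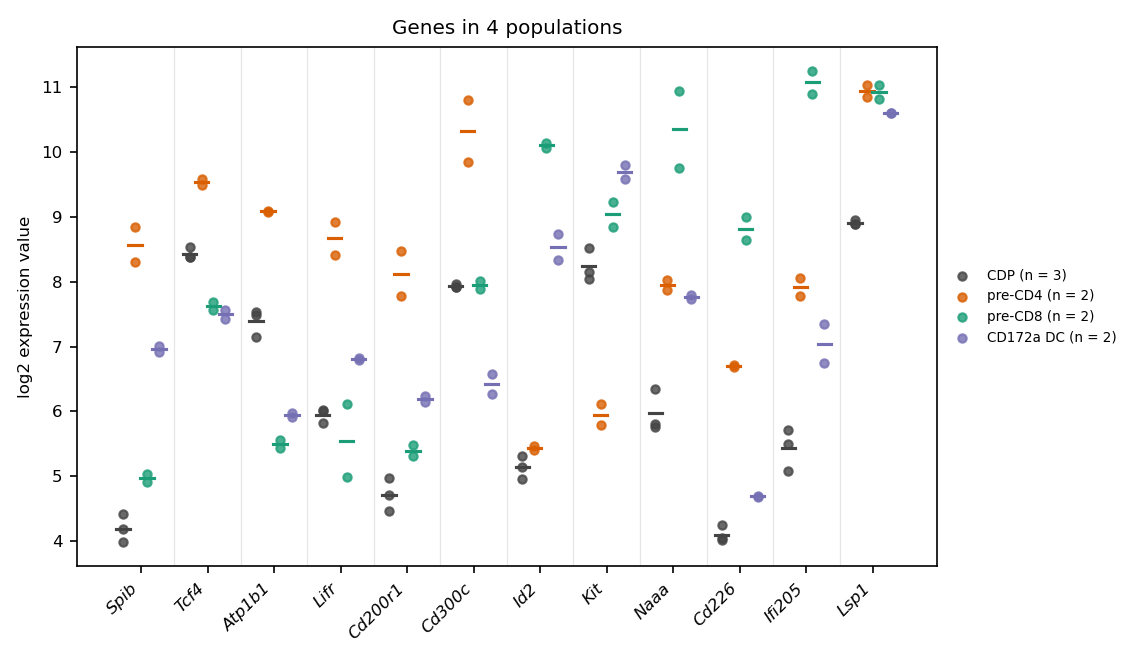
Log2 values of 12 genes in each array of CDP (dark, n = 3), pre-CD4 (orange, n = 2), pre-CD8 (green, n = 2) and CD172a DC (purple, n = 2), with a bar at each group mean. Spib, Lifr and Cd300c are highest in pre-CD4 arrays, Id2 is high in pre-CD8 and CD172a DC arrays, and Lsp1 lies above CDP in all 3 other populations.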

How the data were processed

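The deposited values are log2 expression values made by the authors from Affymetrix arrays after NuGen Ovation Pico WTA amplification, per the labels. They were used as deposited, with background correction and normalization not given in the sources used here. Of 35145 probe sets, 23525 list 1 gene symbol, 1810 list several and 9810 list none. For a gene with several probe sets (1082 genes), that with the highest mean was kept, which gave 22184 genes. No column of values was left unmapped.

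Groups came from the array titles. One limma (3.58.1, R 4.3.3) model with 1 mean per group was fitted to all 12 arrays, with empirical Bayes moderation and Benjamini-Hochberg adjustment over all genes, and genes were called at an adjusted p under 0.05. The contrasts were pre-CD4 minus CDP, pre-CD8 minus CDP, pre-CD4 minus pre-CD8 and CD172a DC minus pre-CD4. The script was tested on simulated data. The number of arrays limits the precision. Lists were described by counts and medians, without a set test. Tables and figures used Python 3.11.15, pandas 2.3.3 and matplotlib 3.10.9.

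The genes and lists were chosen with earlier results of these data known. The named genes are the 40 largest non-overlapping calls in each direction, up to 6 called and some uncalled members of each list, the sort genes and the highest markers of other cells. Outside this rule, Zbtb46, Myb, Sox4, Cd300a, Cd300lb, Cd22, Il12rb2, Il10ra, Gpr183 and the miRNA genes were chosen after their values were seen. Promoter and miRNA sequences are from RefSeq (GRCm38.p6), and 16994 tested genes had a promoter entry.

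The alternatives were quantile normalization, leaving out genes under the 40th percentile of mean level, a fit of the 5 arrays alone, a replicate block, the mean over probe sets, array weights, leaving out the 5 arrays numbered 1, a minimum log2 difference of 1 (treat), and leaving out each CDP and pre-CD4 array. Leaving out each pre-CD8 and CD172a DC array was added after seeing the data.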

Additional observations from a re-analysis of the deposited data

Results flagged for a closer look

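Probe sets that name no single gene were not used above. Tested in the same way with adjustment over all 35145 probe sets, 65 of the 9810 without a listed gene symbol were higher in pre-CD4 than in CDP arrays and 47 were lower. Of the 1810 with several symbols, 15 were higher and 10 were lower. The called shares were 1.14% and 1.38%, against 3.28% of probe sets with 1 symbol. They stand out because they are signals in data outside the gene comparison.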

How the results depend on the processing

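With 3 and 2 arrays, the counts of called genes moved more than the directions did. With array weights, 2021 genes were called (981 higher, 1040 lower), 358 of them family genes. Without the 5 arrays numbered 1, the counts were 427 (235 higher, 192 lower) with 139 family genes, 89 genes between pre-CD4 and pre-CD8 cells, and 996 between CD172a DCs and pre-CD4 cells. With a minimum difference of 1, they were 65 (44 higher, 21 lower), 33, 19 and 340. The cause was not tested, beyond the fewer arrays or stricter rule that these settings set. With 1 array left out, called genes numbered 298 to 934 (184 to 493 higher, 114 to 441 lower) and family genes 97 to 212, the lowest each without pre-CD4 array 2. The whole count was 452 without pre-CD4 array 1, and 618, 666 and 592 without CDP arrays 1, 2 and 3. The pre-CD8 contrast gave 58 genes (without pre-CD8 array 2) to 144, and the CD172a DC contrast 1233 (without pre-CD4 array 1) to 2717. In a lone array's group, that array is assumed to vary like the other groups.

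Quantile normalization gave 1051 calls, of which 911 were among the 1008, and kept 118 of the 121 called genes that are named. The 3 lost were Cysltr1, Orc1 and Sox4. The fit of the 5 arrays alone lost Chaf1b (adjusted p 0.0532), and leaving out a CD172a DC array lost Cdt1 (0.0613). Leaving out pre-CD4 array 2 kept 90, leaving out the arrays numbered 1 kept 103 (Gnl3, Cad, Cd48, Rara and Mx1 are among those lost), and the minimum difference of 1 kept 41. With the replicate block, 1176 genes were called (553 higher, 623 lower), 257 of them family genes. Same-numbered CDP and pre-CD4 arrays deviated together (r = 0.39 and 0.33), but 2 pairs do not establish a pairing. Among uncalled genes, the difference of Flt3 was -0.051 with the block and -0.118 to 0.123 with 1 array left out, and that of Ngp was -2.06 to 0.065. Ccr2 was called by limma in the fit of the 5 arrays alone (adjusted p 0.0330) and with array weights (0.0450). Cd86 (0.0402) and Mir19a (0.0310) were called with array weights. No called gene that is named changed direction in the alternatives run.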
